A study of Mus musculus with 6 samples.

Results

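Fatty acid oxidation was followed here through 56 listed genes of mitochondria and peroxisomes, matched by symbol to the table of all genes. The table held 55 of them among 16619 genes, and the expression of Acot3 was not analysed here, although its start region is counted below. All 55 passed the filter on low values, which kept 16109 genes. By role they were allotted to 22 mitochondrial genes, 13 peroxisomal enzymes, 12 peroxins, which build the peroxisome and import its proteins, and 8 genes whose products are shared between compartments or act elsewhere.

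RNA-seq of polyA mRNA was performed on epididymal white adipose tissue (eWAT), a visceral depot, from female mice aged 6 months, with 3 Prmt5 AKO and 3 WT libraries. Prmt5 AKO mice carried Adipoq-Cre with Prmt5 flox/flox, and WT mice carried Prmt5 flox/flox without Cre, so the floxed allele was present in both genotypes. Adipoq-Cre acts in adipocytes, and the other cell types of the depot keep Prmt5 and are in every library. Prmt5 encodes an arginine methyltransferase that methylates histones, splicing factors and other proteins. Whether each library stands for its own mouse is not stated in the labels or methods, so p-values reflect the spread among these libraries and may reflect technical spread alone. In such bulk RNA, fewer cells of a type and less RNA per cell cannot be told apart.

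Fatty acids enter mitochondria as carnitine esters and are shortened there by repeated cycles of dehydrogenation, hydration, a further dehydrogenation and thiolysis, with the electrons passed on through the electron transfer flavoprotein. Peroxisomes run a parallel cycle with oxidases in the first step and take very long-chain and branched acids, which they shorten and hand on. Peroxins import the enzymes, which carry a targeting signal that is read by PEX5 or by PEX7. White fat mainly stores and releases fatty acids, while brown and beige adipocytes are known for a high rate of oxidation.

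The libraries held 18731215, 24636063 and 23575637 reads in Prmt5 AKO replicates 1 to 3 and 21999576, 27119065 and 27445096 reads in WT replicates 1 to 3, recovered from the deposited values. CPM are reads scaled to the effective library size, which holds a factor per library, and their column totals ran from 868883 to 1113245. Prmt5 had 14.6, 22.0 and 28.5 CPM in Prmt5 AKO and 36.6, 59.7 and 39.7 CPM in WT, without overlap between the genotypes (exact permutation test, two-sided, p = 0.1, the smallest that 3 libraries against 3 can give, limma log2 fold change -1.06, adjusted p = 0.436). On the first principal component over all genes kept, which held 64.5% of the variance, Prmt5 AKO replicate 1 lay among the WT libraries, at -53.3, against 61.0 and 81.0 for Prmt5 AKO replicates 2 and 3 and -74.6, 26.1 and -40.2 for WT replicates 1 to 3. Values by library are therefore given below for selected members and sums, and other results as mean ± SD, median or log2 fold change alone. The 9 adipocyte markers summed to 29282 to 45732 CPM in Prmt5 AKO and to 40058 to 56512 CPM in WT, yet 5 of the 9 had a positive log2 fold change, with a median of 0.20, and only Cfd, at -1.31, did not overlap. Of 8 brown and beige markers, 7 were in the table, with none of the 7 at 0 in a library. Their sum ran from 370 to 761 CPM in Prmt5 AKO and from 101 to 296 CPM in WT. The log2 fold change was positive for 6 of them and negative for 1, Tmem26, with a median of 1.73. The genotypes did not overlap for 4, all higher in Prmt5 AKO. Tmem26 had 0.701 ± 0.242 CPM in Prmt5 AKO and 2.15 ± 1.36 CPM in WT, with overlap. Ucp1 had 265, 135 and 73.9 CPM in Prmt5 AKO and 14.2, 0.265 and 84.8 CPM in WT, also with overlap. The 7 fibroblast and progenitor markers, none at 0, summed to 2257 to 2890 CPM in Prmt5 AKO and to 3416 to 5421 CPM in WT. The 6 skeletal muscle markers summed to 322, 1050 and 1660 CPM in Prmt5 AKO replicates 1 to 3, with Myh4 at 0 in a library. In WT replicates 1 to 3 they summed to 1053, 141 and 2131 CPM. All 9 liver markers had a negative log2 fold change, and all overlapped. Alb had 10.3, 85.3 and 24.1 CPM in Prmt5 AKO and 47.2, 322 and 120 CPM in WT. The part of these cell types and tissues in the values below was not tested.

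The bases before the starts of the genes with the largest fold changes, and of pairs compared further on, are shown first, from RefSeq on GRCm38.p6. Capitals mark a CCAAT box and a GC box, which reads GGGCGG, each on either strand. Acaa1b lies on chromosome 9, minus strand, from 119148023 to 119157093 (GRCm38, GENCODE release M21), and the 250 bases before its start, chr9:119157094-119157343, held 41.6% GC, 2 CCAAT boxes and no GC box. Its paralog Acaa1a lies on the plus strand of the same chromosome, from 119339676 to 119350299. The 134 bases between the last annotated exon upstream and the RefSeq start of Acaa1a, chr9:119341160-119341293, held 61.2% GC, 2 CCAAT boxes and 3 GC boxes. This stretch lies inside the GENCODE span of Acaa1a and is shorter than the window of Acaa1b. The full 250 bases before that RefSeq start, which reach into an exon, held 53.6% GC, 3 CCAAT boxes and 3 GC boxes. Both genes encode the peroxisomal 3-ketoacyl-CoA thiolase.
Acaa1b: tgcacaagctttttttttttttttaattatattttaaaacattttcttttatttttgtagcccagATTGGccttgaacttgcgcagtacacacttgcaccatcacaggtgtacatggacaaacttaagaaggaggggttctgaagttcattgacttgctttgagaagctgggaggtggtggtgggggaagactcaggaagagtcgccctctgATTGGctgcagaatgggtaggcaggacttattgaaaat
Acaa1a: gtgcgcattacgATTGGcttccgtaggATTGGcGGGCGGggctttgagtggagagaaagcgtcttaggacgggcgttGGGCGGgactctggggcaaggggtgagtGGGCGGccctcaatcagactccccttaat

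Acsm3 and Acot4 had the lowest log2 fold changes of the 55, and neither window held a GC box. Acsm3 lies on chromosome 7, plus strand, from 119760923 to 119787513, and the 250 bases before its start, chr7:119760673-119760922, held 2 CCAAT boxes. Acot4 lies on chromosome 12, plus strand, from 84038379 to 84048601, and its window, chr12:84038129-84038378, held 1 CCAAT box.
Acsm3: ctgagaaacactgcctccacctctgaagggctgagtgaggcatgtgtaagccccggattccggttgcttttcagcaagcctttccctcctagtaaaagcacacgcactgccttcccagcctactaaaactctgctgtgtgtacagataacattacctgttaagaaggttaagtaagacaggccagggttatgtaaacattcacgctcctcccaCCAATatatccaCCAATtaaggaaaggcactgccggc
Acot4: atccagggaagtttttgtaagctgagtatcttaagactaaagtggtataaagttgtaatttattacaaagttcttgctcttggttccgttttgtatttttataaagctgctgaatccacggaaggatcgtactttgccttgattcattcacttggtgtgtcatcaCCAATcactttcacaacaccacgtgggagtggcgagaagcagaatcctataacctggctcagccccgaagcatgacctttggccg

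Hadha and Hadhb, the 2 subunits of the mitochondrial trifunctional protein, are transcribed away from each other on chromosome 5. Only 85 bases, chr5:30155163-30155247, separate their annotated starts. This stretch held 69.4% GC and 2 GC boxes and is shown on the plus strand, from the Hadha side to the Hadhb side.
Hadha to Hadhb: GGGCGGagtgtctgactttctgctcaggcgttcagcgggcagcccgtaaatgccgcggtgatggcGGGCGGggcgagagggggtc

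The start regions of 48 of the 56 listed genes matched the promoter table. The motif AGGNCANAGGNCA, a direct repeat read by PPAR and RXR heterodimers, and TCAAGGTCA, the extended site of estrogen-related receptors, were searched on both strands of the 250 bases before each start. The second contains AGGTCA, which the repeat of the first can also hold. Each was found at 0 of the 48 genes, against 0.400% and 0.422% of the 27025 genes of the table. At shares this low, 0 of 48 genes cannot be told apart from the share of all genes. CCAAT boxes stood at 25 of the 48, 52.1%, against 37.5% of all genes, and GC boxes at 28 of the 48, 58.3%, against 35.4%. The 27025 genes were not limited to the genes kept here, whereas of the 48 all but Acot3 were kept, so these shares compare unlike sets. The matches describe letters in a fixed window only.

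Limma on log2(CPM + 0.5) called 0 of the 55 members at a Benjamini-Hochberg adjusted p under 0.05 with an absolute log2 fold change over 0.5. It called 0 of 16109 genes, a background of 0%, while 9 members and 1404 genes had an unadjusted p under 0.05. The quasi-likelihood test of edgeR also called 0 members and 0 genes. DESeq2 called 2 members, Acaa1b and Acsm3, of 301 genes, and the likelihood ratio test of edgeR called the same 2 of 162 genes. With the replicate number as a block, the likelihood ratio test called 6 members of 682 genes, named in the last section. Since the main test called none, the words higher and lower below describe measured values.

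The genotypes did not overlap for 14 members. In 6 members the 3 Prmt5 AKO libraries all lay above the 3 WT libraries, 10.9% of the 55 against 8.16% of all genes kept. In 8 members they all lay below, 14.5% against 6.28%. At an unadjusted p under 0.05 stood 4 members higher in Prmt5 AKO, 7.27% against 4.79% of all genes, and 5 members lower, 9.09% against 3.93%. The log2 fold change, Prmt5 AKO over WT, was positive for 32 members and negative for 23, with a median of 0.03 against -0.03 over all genes kept. It ran from -1.83 for Acsm3 to 1.61 for Acaa1b, and the middle of the list, between the quartiles, from -0.28 to 0.44.

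**Figure D1:**
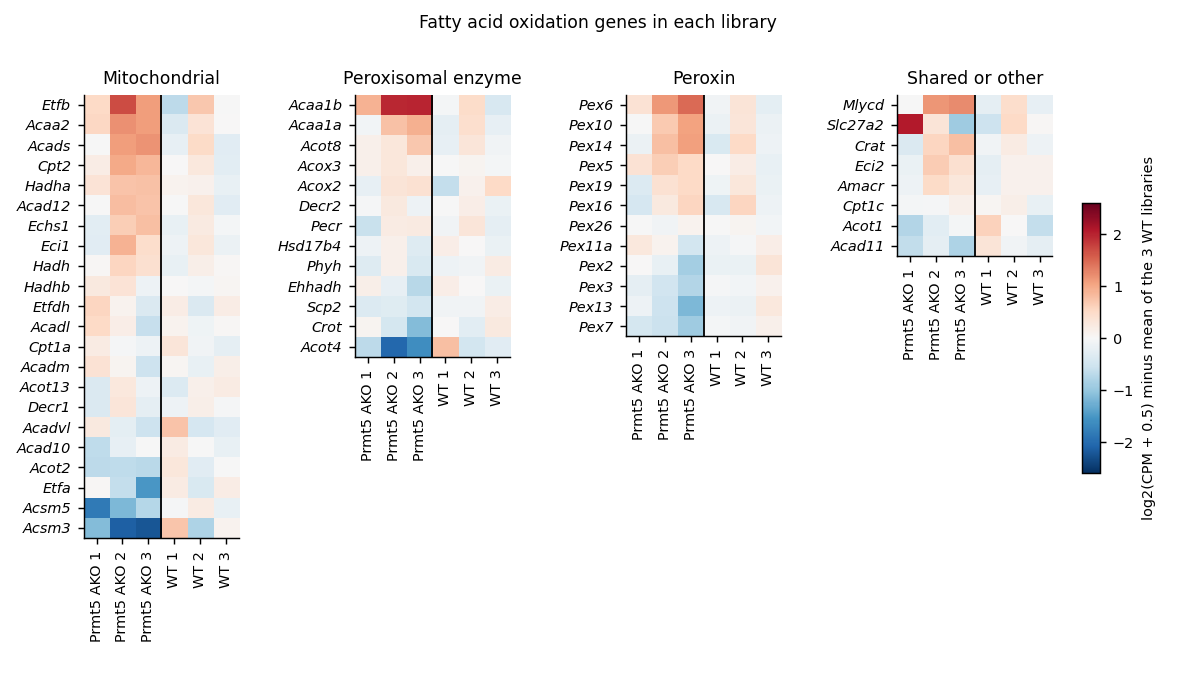
Each row is a member and each column a library, with the 3 Prmt5 AKO libraries left of the line and the 3 WT libraries right of it. Colour gives log2(CPM + 0.5) minus the mean of the WT libraries, red above and blue below, and in 36 of the 55 rows Prmt5 AKO replicate 1 is the palest of its genotype.

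The 5 members of the mitochondrial cycle after the first dehydrogenation had a uniform direction. All 5 had a positive log2 fold change, with a median of 0.38, while 48.1% of all genes kept were positive. Outside the members, Acat1, also a mitochondrial thiolase, was at -0.07 and Hsd17b10, a mitochondrial dehydrogenase, at 0.38, both with overlapping libraries. The sum of the 5 members took 0.186%, 0.211% and 0.197% of the reads in Prmt5 AKO and 0.144%, 0.158% and 0.146% in WT. The genotypes did not overlap for this sum. Acaa2, the mitochondrial 3-ketoacyl-CoA thiolase of the last step, had 240, 379 and 354 CPM in Prmt5 AKO and 128, 212 and 168 CPM in WT. Each Prmt5 AKO library was above each WT library, and replicate 1 was the lowest of its genotype in both. The means were 324 ± 74.0 CPM in Prmt5 AKO and 169 ± 41.9 CPM in WT (SD, n = 3 each), a log2 fold change of 0.94 (limma, SE 0.31, adjusted p = 0.465).

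Hadha, which encodes the subunit with hydratase and long-chain hydroxyacyl-CoA dehydrogenase activity, had 371, 484 and 494 CPM in Prmt5 AKO and 310, 314 and 253 CPM in WT. The genotypes again did not overlap, and the log2 fold change was 0.61 (limma, SE 0.28, adjusted p = 0.580). Hadhb, the thiolase subunit of the same complex, had 301 ± 51.2 CPM in Prmt5 AKO and 268 ± 9.08 CPM in WT, with overlapping libraries and a log2 fold change of 0.15. Of the 50-base words of Hadhb transcripts, 19.7% also occur in other genes, mostly Gm13910. Corrected for transcript GC, which is 39.1% in Hadhb, the order of the subunits turned, at 0.73 for Hadhb and 0.52 for Hadha. Hadh, the dehydrogenase for shorter chains and the member with the highest mean among the mitochondrial genes, had 423, 606 and 550 CPM in Prmt5 AKO and 363, 462 and 424 CPM in WT (log2 fold change 0.33, limma, SE 0.29, adjusted p = 0.645). Only Prmt5 AKO replicate 1 of Hadh lay within the WT range. Echs1, the short-chain enoyl-CoA hydratase, had a log2 fold change of 0.38 with overlapping libraries.

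The steps on either side were less uniform. Of the carnitine shuttle, Cpt2, the inner membrane transferase, had 202 ± 55.3 CPM in Prmt5 AKO and 124 ± 23.3 CPM in WT (log2 fold change 0.68, limma, SE 0.31, adjusted p = 0.580). Its Prmt5 AKO replicate 1, at 140 CPM, was within the WT range. Cpt1a, the rate-limiting outer membrane transferase, had 74.5 ± 9.59 CPM in Prmt5 AKO and 74.2 ± 15.3 CPM in WT. The difference between these means was far within the spread.

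The 6 acyl-CoA dehydrogenases, which open each cycle, divided into 3 with a positive and 3 with a negative log2 fold change. Acadm, the medium-chain enzyme and the second highest mitochondrial member by mean CPM, had 507, 407 and 267 CPM in Prmt5 AKO and 400, 341 and 430 CPM in WT. The Prmt5 AKO libraries enclosed the WT range, with replicate 1 the highest and replicate 3 the lowest. Its log2 fold change was -0.03 (limma, SE 0.32, adjusted p = 0.966), and it was 0.02 in DESeq2. Acads, the short-chain enzyme, had 157, 336 and 359 CPM in Prmt5 AKO and 136, 226 and 130 CPM in WT, so that replicates 2 and 3 were above the WT range and replicate 1 within it. Acadl and Acadvl, for long and very long chains, had log2 fold changes of 0.03 and -0.18.

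The electron transfer genes differed among themselves. Etfb, the beta subunit of the flavoprotein, had 103, 235 and 154 CPM in Prmt5 AKO and 44.7, 118 and 71.2 CPM in WT. Replicates 2 and 3 of Prmt5 AKO were above every WT library and replicate 1 was below WT replicate 2, and the log2 fold change was 1.10 (limma, SE 0.43, unadjusted p = 0.034, adjusted p = 0.531). Etfa, the alpha subunit, had 195 ± 97.4 CPM in Prmt5 AKO and 294 ± 64.5 CPM in WT, a log2 fold change of -0.69. Of the 50-base words of Etfb transcripts, 44.8% also occur in another gene, mostly Gm45233 on the same strand, so its reads may be divided with that gene. Etfdh, the dehydrogenase that takes the electrons to ubiquinone, had a log2 fold change of 0.09.

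Acsm3 and Acsm5, mitochondrial synthetases that activate medium-chain acids, were the mitochondrial genes with the lowest fold changes. Acsm3 had 11.9, 5.75 and 5.34 CPM in Prmt5 AKO and 44.2, 15.1 and 28.4 CPM in WT. All Prmt5 AKO libraries were below all WT libraries, and the library numbered 1 was the highest in each genotype. The log2 fold change was -1.83 (limma, SE 0.47, unadjusted p = 0.0046, adjusted p = 0.356), and it passed in DESeq2 (-1.93, adjusted p = 0.0158). Acsm3 shares 34.0% of its 50-base words with Eri2, which overlaps it on the opposite strand, and whether strand was used in counting is not given in the sources used here.

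Acsm5 had 5.84, 9.63 and 13.1 CPM in Prmt5 AKO and 21.6, 25.8 and 19.4 CPM in WT. Here Prmt5 AKO replicate 1 was the lowest of all, unlike in Acsm3. The log2 fold change was -1.24 (limma, SE 0.35, unadjusted p = 0.0075, adjusted p = 0.383; DESeq2 adjusted p = 0.107). Acot2, a matrix thioesterase that releases fatty acids from CoA, had 15.4, 15.6 and 15.1 CPM in Prmt5 AKO and 30.7, 20.3 and 24.6 CPM in WT. Its Prmt5 AKO libraries had an SD of 0.229 CPM and lay below every WT library (log2 fold change -0.68, limma, SE 0.27, unadjusted p = 0.038, adjusted p = 0.542). Acot2 shares 24.5% of its 50-base words with Acot1, its cytosolic relative, which had 2.43 ± 0.707 CPM in Prmt5 AKO and 3.42 ± 1.61 CPM in WT.

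**Figure D2:**
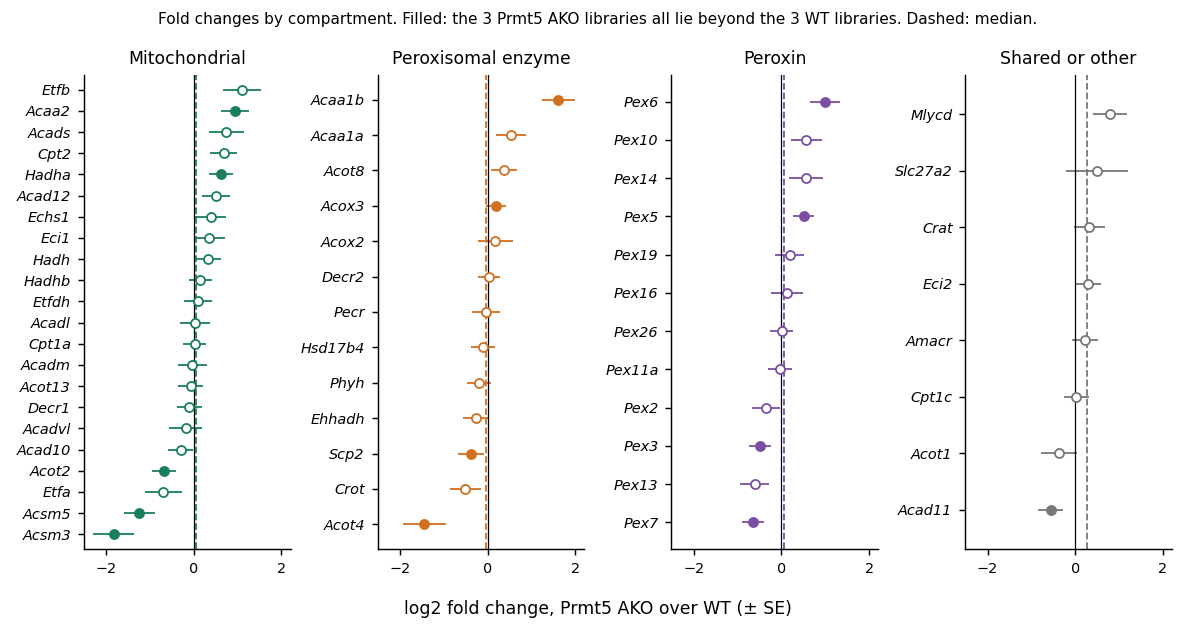
Log2 fold changes of Prmt5 AKO over WT for the 55 members in 4 panels by compartment, with bars of 1 SE from limma. Filled points are the 14 members whose genotypes did not overlap, and the dashed medians of the mitochondrial genes, peroxisomal enzymes and peroxins lie at 0.06, -0.04 and 0.06.

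Among the peroxisomal enzymes the thiolase step stood out by size. Acaa1b had 127, 266 and 271 CPM in Prmt5 AKO and 65.4, 94.4 and 51.1 CPM in WT. The lowest Prmt5 AKO library, replicate 1, was still above the highest WT library, replicate 2. The means were 221 ± 81.6 CPM in Prmt5 AKO and 70.3 ± 22.0 CPM in WT (SD, n = 3 each), and the fitted fold change was 3.06 (log2 fold change 1.61, limma, SE 0.38, unadjusted p = 0.0029, adjusted p = 0.322). Over the alternatives its adjusted p ran from 0.00046 to 0.946, and 5 of 20 called it, among them DESeq2 (adjusted p = 0.0128).

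Acaa1a, the paralog with the start region shown above, had 165, 294 and 328 CPM in Prmt5 AKO and 148, 235 and 151 CPM in WT, with overlap and a log2 fold change of 0.53 (limma, SE 0.35, adjusted p = 0.611). The ratio of Acaa1b to Acaa1a within a library does not depend on the scaling of libraries. It was 0.769, 0.905 and 0.826 in Prmt5 AKO and 0.441, 0.403 and 0.339 in WT, so the genotypes lay apart. Of the 50-base words of Acaa1b transcripts, 30.5% also occur in Acaa1a, and reads that match both would have been removed as not unique. In all, 39.6% of the words of Acaa1b occur in other genes. On the opposite strand, exons of Acaa1b overlap Dlec1 and exons of Acaa1a overlap Myd88, and whether strand was used in counting is not given.

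At the other end, Acot4, a peroxisomal thioesterase for succinyl-CoA and other dicarboxylic CoA esters, had 7.10, 2.45 and 3.49 CPM in Prmt5 AKO and 20.5, 8.21 and 9.43 CPM in WT. Every Prmt5 AKO library was below every WT library, and replicate 1 was the highest of each genotype. The log2 fold change was -1.45 (limma, SE 0.49, unadjusted p = 0.018, adjusted p = 0.473), on 55 to 481 reads a library. Acot4 overlaps Gm49366 on its own strand and 4732463B04Rik on the opposite one. Acot8, another peroxisomal thioesterase, had a log2 fold change of 0.37.

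Scp2, which encodes the thiolase for branched chains and sterol carrier protein 2, held 39.1% ± 4.30 of the reads of the peroxisomal enzymes in Prmt5 AKO and 49.8% ± 4.45 in WT (SD, n = 3 each). It had 709, 737 and 650 CPM in Prmt5 AKO and 855, 854 and 1037 CPM in WT. The genotypes did not overlap, at a log2 fold change of -0.39 (limma, SE 0.30, adjusted p = 0.624). Scp2 shares 29.7% of its 50-base words with the pseudogene Scp2-ps2.

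Hsd17b4, the D-bifunctional protein and the second highest of these enzymes by mean CPM, had 274, 330 and 239 CPM in Prmt5 AKO and 339, 301 and 266 CPM in WT, with full overlap and a log2 fold change of -0.11. Acox3, an oxidase for branched chains, had 54.2, 61.3 and 54.8 CPM in Prmt5 AKO and 49.2, 52.5 and 47.7 CPM in WT. It did not overlap, yet the log2 fold change was only 0.19 (limma, SE 0.23, adjusted p = 0.715). Ehhadh, the L-bifunctional protein, Crot, the octanoyl transferase that exports shortened chains, and Phyh, the first enzyme of alpha-oxidation, had log2 fold changes of -0.26, -0.51 and -0.20. Acox2, the oxidase for bile acid intermediates, stayed between 0.256 and 1.17 CPM in all 6 libraries.

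The 12 peroxins divided by gene, with 7 positive and 5 negative log2 fold changes. Pex6, an ATPase that draws the import receptor back out of the membrane, had 126, 215 and 270 CPM in Prmt5 AKO and 91.3, 124 and 82.2 CPM in WT. The lowest Prmt5 AKO library exceeded the highest WT library by a small margin, and the log2 fold change was 0.99 (limma, SE 0.34, unadjusted p = 0.021, adjusted p = 0.483). Pex26, its anchor at the membrane, had 12.7 ± 0.851 CPM in Prmt5 AKO and 12.7 ± 0.595 CPM in WT. Pex5, the receptor for the common targeting signal, had 134, 161 and 147 CPM in Prmt5 AKO and 104, 118 and 90.0 CPM in WT, without overlap (log2 fold change 0.51, limma, SE 0.24, adjusted p = 0.590).

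Pex7, the receptor for the rarer signal that thiolases of the ACAA1 kind and PHYH carry, had 25.1, 23.4 and 18.1 CPM in Prmt5 AKO and 33.8, 32.8 and 38.2 CPM in WT. It was lower in every Prmt5 AKO library, with a log2 fold change of -0.65 (limma, SE 0.26, unadjusted p = 0.035, adjusted p = 0.533). Pex3, which receives new membrane proteins, had 41.0, 34.1 and 28.4 CPM in Prmt5 AKO and 47.2, 45.7 and 51.9 CPM in WT. It too did not overlap (log2 fold change -0.49, limma, SE 0.25, adjusted p = 0.597). Pex19, the carrier of these membrane proteins, had 196, 327 and 359 CPM in Prmt5 AKO and 230, 308 and 221 CPM in WT, and Pex16, which acts with PEX3, had 117, 190 and 233 CPM in Prmt5 AKO and 118, 234 and 144 CPM in WT. Both overlapped, with log2 fold changes of 0.18 and 0.13. Pex13, of the docking complex, had a log2 fold change of -0.61, against 0.56 for Pex14 of the same complex, both with overlapping libraries. Corrected for transcript GC they were at -0.02 and 0.42. Pex14 shares 25.2% of its 50-base words with Gm17029, which overlaps it on the opposite strand.

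Of the 8 shared or other genes, Acad11, a dehydrogenase reported in both organelles, had 103, 136 and 91.0 CPM in Prmt5 AKO and 201, 149 and 136 CPM in WT. The highest Prmt5 AKO library and the lowest WT library were both at 136 CPM, so the genotypes were separated only nominally, and the log2 fold change was -0.56 (limma, SE 0.28, adjusted p = 0.596). Crat, the carnitine acetyltransferase and the highest of the 8 by mean CPM, had 224, 427 and 504 CPM in Prmt5 AKO and 274, 337 and 267 CPM in WT, with replicate 1 of Prmt5 AKO below and replicates 2 and 3 above the WT range (log2 fold change 0.32, and 0.10 corrected for GC). Mlycd, which breaks down the CPT1 inhibitor malonyl-CoA, had 70.1, 157 and 168 CPM in Prmt5 AKO and 59.9, 96.9 and 61.3 CPM in WT, with replicate 1 of Prmt5 AKO inside the WT range (log2 fold change 0.79). Slc27a2, a very long-chain acyl-CoA synthetase, had 9.09, 2.41 and 0.708 CPM in Prmt5 AKO and 1.07, 2.76 and 1.85 CPM in WT. Its log2 fold change of 0.50 came from Prmt5 AKO replicate 1, and without that library it was -0.29.

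**Figure D3:**
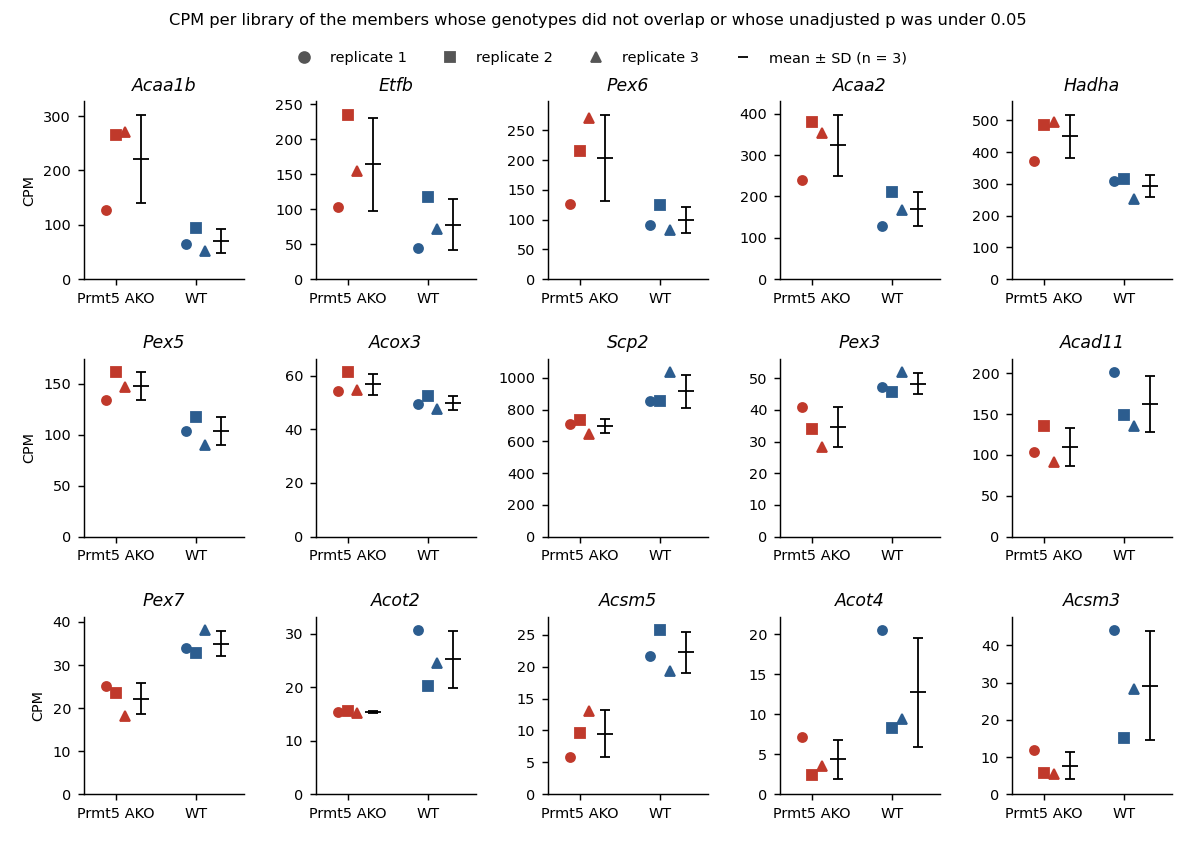
CPM of 15 members in each library on linear axes from 0, Prmt5 AKO in red at the left of each panel and WT in blue at the right, with bars of mean ± SD. They are the 14 members whose genotypes did not overlap and Etfb, ordered by log2 fold change from Acaa1b at 1.61 to Acsm3 at -1.83.

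Compared as compartments, the members differed little by their medians. The median log2 fold change was 0.06 for the mitochondrial genes, with 13 positive and 9 negative, -0.04 for the peroxisomal enzymes, with 6 positive and 7 negative, and 0.06 for the peroxins, against -0.03 for all genes kept. The genotypes did not overlap for 5 of 22 mitochondrial genes, 4 of 13 peroxisomal enzymes and 4 of 12 peroxins, which is 22.7%, 30.8% and 33.3% against 14.4% of all genes kept. Leaving out 1 library at a time changed the sign of the median in each compartment at least once. The mitochondrial median was 0.26 without Prmt5 AKO replicate 3 and -0.02 without WT replicate 2, and with values corrected for transcript GC it was 0.24.

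The summed levels, which abundant genes dominate, did separate the genotypes on the mitochondrial side. Mitochondrial members took 0.466%, 0.469% and 0.389% of the reads in Prmt5 AKO and 0.388%, 0.375% and 0.372% in WT. The lowest Prmt5 AKO library, replicate 3, was just above the highest WT library. Peroxisomal enzymes took 0.185%, 0.183% and 0.160% of the reads in Prmt5 AKO and 0.189%, 0.180% and 0.194% in WT, with overlap.

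The ratio of mitochondrial to peroxisomal enzyme reads was 2.51, 2.57 and 2.43 in Prmt5 AKO and 2.06, 2.09 and 1.92 in WT, and every Prmt5 AKO library lay above every WT library. This ratio was computed after the single values had been seen and has no test. It depended on Scp2 and on the group of 5 genes from hydratase to thiolase. Without Scp2 it was 4.49, 4.06 and 3.82 in Prmt5 AKO and 3.98, 3.89 and 4.25 in WT, and without the group of 5 it was 1.51, 1.41 and 1.20 in Prmt5 AKO and 1.29, 1.21 and 1.16 in WT, with overlap in both. The peroxisomal enzymes without Scp2 took 0.104%, 0.115% and 0.102% of the reads in Prmt5 AKO and 0.0975%, 0.0965% and 0.0875% in WT.

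Partner genes could also be set against each other within a library. Etfb to Etfa was 0.350, 1.25 and 1.52 in Prmt5 AKO and 0.134, 0.536 and 0.217 in WT, so replicate 1 of Prmt5 AKO stayed within the WT range. Hadha to Hadhb was 1.17, 1.42 and 2.03 in Prmt5 AKO and 1.15, 1.21 and 0.915 in WT, again with replicate 1 inside. Pex6 to Pex26 was 9.98, 18.1 and 19.9 in Prmt5 AKO and 7.23, 9.32 and 6.80 in WT. Pex5 to Pex7, the 2 import receptors, was 5.32, 6.88 and 8.10 in Prmt5 AKO and 3.07, 3.59 and 2.36 in WT. The last pair and Pex6 to Pex26 did not overlap between genotypes, and the pairs were picked with the single values known.

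**Figure D4:**
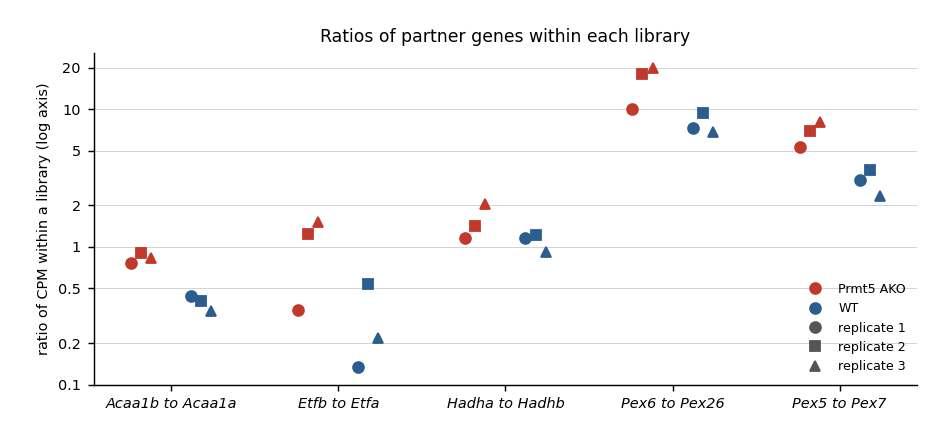
Ratio of the CPM of partner genes within each library on a log axis, Prmt5 AKO in red to the left and WT in blue to the right of each pair. The 3 Prmt5 AKO libraries lie above the 3 WT libraries for Acaa1b to Acaa1a, Pex6 to Pex26 and Pex5 to Pex7, and overlap them for Etfb to Etfa and Hadha to Hadhb.

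Base composition moved with these values. Over the 55 members the log2 fold change and the GC content of the longest transcript had a Spearman correlation of 0.69, against 0.50 over the genes kept. The genes share the same 6 libraries, and this is a description across genes, which are not independent. Median GC was 52.7% for the 32 members with a positive and 46.2% for the 23 with a negative log2 fold change. Over the genes kept, the median log2 fold change was -0.60 for transcripts of 35% to 40% GC and 0.31 for those of 55% to 60%. In each of the 5 partner pairs the first gene had the higher GC, as with Pex5 at 55.0% and Pex7 at 44.0%.

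With values corrected per library for GC, 13 of the 14 members without overlap kept the sign of their log2 fold change, and Pex3 turned from -0.49 to 0.11. Of the 9 members with an unadjusted p under 0.05, 8 stayed under it, and Pex7, at -0.29, did not. Acaa1b was then at 1.30, Acsm3 at -1.34, Acsm5 at -1.21, Acot4 at -1.22, Acaa2 at 0.77 and Pex6 at 0.64, none of them called. Scp2 was at -0.07, Acad11 at -0.09 and Acox3 at 0.03. The correction moved the log2 fold change by over 1.5 times in 38 of the 55 members and turned its sign in 9.

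**Figure D5:**
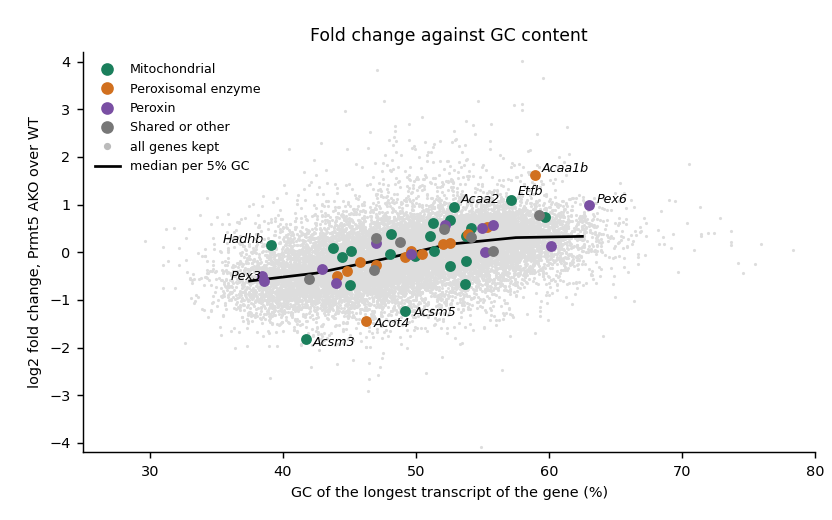
Log2 fold change of Prmt5 AKO over WT against the GC content of the longest transcript in percent, for the 55 members in colour by compartment and the genes kept in grey. The black line is the median per 5% of GC, drawn where at least 100 genes fall in a bin, and it climbs with GC from -0.60 in the bin that starts at 35% to 0.33 in the bin that starts at 60%.

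Prmt5 AKO replicate 1 was the library closest to WT for many members. In 34 members replicates 2 and 3 both lay on the same side of the whole WT range, above it in 21 and below it in 13, which is 61.8% of the members against 56.8% of all genes kept. In 16 of the 34, replicate 1 was within that range, 29.1% of the members against 30.1% of all genes kept. Nuclear-retained RNAs, a list of 6 that holds Malat1 and Neat1 and none at 0, summed to 2116, 180 and 180 CPM in Prmt5 AKO and to 2176, 730 and 1673 CPM in WT, and their part was not tested. Without replicate 1, 25 members had an unadjusted p under 0.05, 45.5% of them against 35.3% of all genes, and limma called 1 member, Acaa1b (log2 fold change 1.97, adjusted p = 0.0396).

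Levels of different genes were compared as CPM per kilobase of annotated exons. In Prmt5 AKO the highest were Acaa2 at 214 ± 48.8, Scp2 at 201 ± 12.8 and Acadl at 165 ± 60.1, and in WT Scp2 at 263 ± 30.2, Etfa at 160 ± 35.2 and Acadl at 155 ± 11.5 (SD, n = 3 each). Acaa2 and Scp2 did not differ beyond their spread in Prmt5 AKO. Acaa2 was lower than these 3 in WT, at 112 ± 27.6, and Acaa1b was at 113 ± 41.6 in Prmt5 AKO and 35.8 ± 11.2 in WT. Of the carnitine palmitoyltransferases, Cpt2 had 84.7, Cpt1a 9.74 and Cpt1c, the form known from brain, 1.58 CPM per kilobase in Prmt5 AKO, against 51.8, 9.71 and 1.57 in WT. Cpt1b, a further form, was not analysed here, so these values do not cover all of CPT1. The lowest member in both genotypes was Acox2.

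Of 46 further genes of fatty acid oxidation listed with the members, 40 were in the table and 38 were kept. Limma and the quasi-likelihood test of edgeR each called 0 of the 38, with 4 at an unadjusted p under 0.05 in limma, 2 in each direction, and DESeq2 called 1, Acot11. These 4 stand against 8.72% of all genes kept. The genotypes did not overlap for 4 of the 38, which is 10.5% against 14.4% of all genes kept. Acot11, a thioesterase induced in brown fat by cold, had 22.4, 6.60 and 6.33 CPM in Prmt5 AKO and 2.30, 2.01 and 3.99 CPM in WT (log2 fold change 1.71, adjusted p = 0.426). Abcd2, a peroxisomal importer of very long-chain acyl-CoA, had 166 ± 85.3 CPM in Prmt5 AKO and 401 ± 159 CPM in WT (log2 fold change -1.31, adjusted p = 0.483). Acadsb, for short branched chains, and Acad8, for isobutyryl-CoA, had log2 fold changes of -0.94 and 0.58.

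Of 16 regulators, limma called 0, with 1 at an unadjusted p under 0.05, and DESeq2 and both edgeR tests also called 0. Esrra, an orphan receptor that drives oxidative genes, had 82.1, 91.6 and 115 CPM in Prmt5 AKO and 49.0, 62.1 and 53.1 CPM in WT, without overlap (log2 fold change 0.80, limma, SE 0.25, adjusted p = 0.435). Pparg, the master regulator of adipocytes, had 134, 146 and 88.7 CPM in Prmt5 AKO and 171, 176 and 206 CPM in WT, also without overlap (log2 fold change -0.61, adjusted p = 0.581). Acaca, which makes malonyl-CoA, and Rxrb, a partner of the PPARs, had log2 fold changes of -0.79 and 0.65. Of the 6 ketone body genes limma, DESeq2 and both edgeR tests called 0 and none had an unadjusted p under 0.05 in limma, with log2 fold changes of -0.61 for Bdh2, 0.58 for Acat2 and -0.38 for Oxct1.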

How the data were processed

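RNA-seq reads of 3 Prmt5 AKO and 3 WT eWAT libraries were processed by the authors with FastQC 0.11.9, Trim Galore 0.6.0, STAR 2.7.10a on GRCm38 and featureCounts of Subread 2.0.1. Whether strand was used in counting is not given in the sources used here, and the paper mentions a batch correction without naming a batch. The deposited signal per gene and library is CPM on an effective library size, and 100% of the values were whole multiples of 1 read, within 0.05 of a read. Deposited columns of fold changes, likelihood ratios, p-values and FDR and the DAVID tables hold the authors' own comparisons and were not used.

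The members and lists were chosen with earlier results of these data known. The filter on low values kept a gene where 3 or more libraries reached 0.5 CPM. The genotypes were compared with limma 3.58.1 (lmFit, eBayes with trend) on log2(CPM + 0.5), which understates the change of low genes, with genotype as the only term and Benjamini-Hochberg adjustment over 16109 genes. Calls needed both an adjusted p below 0.05 and a log2 fold change beyond 0.5 in size. Medians of fold changes over members are descriptions. Values in every library were given for members whose genotypes did not overlap, members with an unadjusted p under 0.05, the 2 members with the highest mean among the mitochondrial genes, the peroxisomal enzymes and the peroxins and the members the study names. From the other lists, up to 4 genes with the smallest unadjusted p were named, and Acat1 and Hsd17b10 besides. Other genes with values by library were chosen after their values were seen.

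Alternatives were other pseudocounts, filters and scalings, the replicate number as a block, adjusted p alone, edgeR 4.0.16 and DESeq2 1.42.0 on recovered reads, another allotment of shared members and each library left out. The likelihood ratio test of edgeR and the correction for transcript GC, a lowess per library over 16079 genes with a GC value, were chosen after seeing the data. Limma was tested on simulated data first. Gene positions, exon lengths, GC and shared 50-base words were taken from GENCODE M21, and start regions from RefSeq (GRCm38.p6). R 4.3.3, Python 3.11.15, pandas 2.3.3, numpy 2.4.6 and matplotlib 3.10.9 were used.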

Additional observations from a re-analysis of the deposited data

How the results depend on the processing

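Members called numbered 2 with the replicate block in limma (Acaa1b and Acsm3, of 129 genes), 0 with the replicate block in the quasi-likelihood test of edgeR (of 53 genes), 2 in DESeq2 (of 301 genes), 2 in the likelihood ratio test of edgeR (of 162 genes) and 6 in that likelihood ratio test with the replicate block (of 682 genes). Those 6 were Acaa1b, Etfb and Acaa2, higher in Prmt5 AKO, and Acsm3, Acot4 and Acsm5, lower. The paper, which used edgeR and mentions a batch correction, reports Acaa2 and Acaa1b as raised and Acsm3 and Acsm5 as reduced. It also gives gene set enrichment, with fatty acid metabolism lowered and peroxisome pathways enriched among raised genes. For the reduced genes it further points to relative mRNA levels of selected genes. With libraries left out in turn the calls ran from 0 to 84 genes and from 0 to 1 member, both highest without Prmt5 AKO replicate 1, and were 0 without any other library. Deviations of same-numbered libraries correlated at 0.68, 0.57 and -0.11 over genes. Prmt5 AKO replicates 1 and 2 each correlated best with the WT library of the same number. Prmt5 AKO replicate 3 correlated best with WT replicate 2, and WT replicate 3 with Prmt5 AKO replicate 1. The sources name no pairing or batch, so the number served as a block in alternatives only. Whether it marks the batch that the paper corrected for was not tested. Prmt5 was called only in the likelihood ratio test with the replicate block (log2 fold change -1.08, adjusted p = 0.0366), and without single libraries it ran from -1.28 to -0.81. The median log2 fold change ran from -0.016 to 0.26 for mitochondrial members, from -0.17 to 0.12 for peroxisomal enzymes and from -0.04 to 0.21 for peroxins with libraries left out, and corrected for GC it was 0.24 for mitochondrial members.

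The sign held under every alternative for 36 of 55 members. Scaled to library totals, signs turned for Cpt1a (-0.041), Acadl (-0.030), Decr2 (-0.028), Pex26 (-0.053) and Cpt1c (-0.036). Acadm turned to 0.0091 in both edgeR tests without a block and to 0.015 in DESeq2. Corrected for GC, signs turned for Cpt1a (-0.078), Acadm (0.082), Decr1 (0.23), Phyh (0.056), Pex2 (0.067), Pex3 (0.11), Pex16 (-0.20), Pex26 (-0.25) and Cpt1c (-0.24). With libraries left out, signs turned within -0.095 to 0.18 for Cpt1a, -0.41 to 0.18 for Acadvl, -0.22 to 0.34 for Acadl, -0.24 to 0.22 for Acadm, -0.31 to 0.037 for Decr1, -0.14 to 0.33 for Etfdh, -0.25 to 0.073 for Acot13, -0.14 to 0.44 for Acox2, -0.23 to 0.0017 for Hsd17b4, -0.083 to 0.12 for Decr2, -0.18 to 0.23 for Pecr, -0.19 to 0.18 for Pex11a, -0.088 to 0.41 for Pex16, -0.045 to 0.047 for Pex26, -0.075 to 0.092 for Cpt1c and -0.29 to 1.21 for Slc27a2. The cause was not tested. Depth limits Acox2, with as few as 6 reads in a library, more than Scp2, with at least 13766.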
